A study of Mus musculus with 72 samples.

Results

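Gastrocnemius muscle of *Bmal1*-KO mice that had received a muscle *Bmal1* vector (KO+AAV) was compared with that of *Bmal1*-KO mice (KO) at 10 weeks of age by RNA-Seq. The comparison took the 7 KO+AAV and 6 KO libraries that the labels place at this age and tissue, 13 of the 72 libraries of the series. All mice were male. KO and KO+AAV mice both lacked *Bmal1* in the whole body, and the KO+AAV mice had been injected as neonates with an AAV9 vector that carried mouse *Bmal1* cDNA with a C-terminal HA tag under CK6, a muscle-specific promoter. The study found the tagged protein in gastrocnemius and did not detect it in soleus or diaphragm. Muscle was collected at ZT1, 1 hour after lights on. The 6 WT libraries at 10 weeks, from littermates, the 5 KO and 5 KO+AAV libraries at 40 weeks, and an experiment of its own with 3 KO+GFP and 3 KO control libraries at 10 weeks are given beside the comparison. The labels do not say whether the KO mice received an empty vector.

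BMAL1 pairs with CLOCK or NPAS2 and switches on genes whose regulatory DNA holds an E-box. Among these genes are *Per* and *Cry*, whose proteins block the pair, and *Nr1d1* and *Nr1d2*, which encode the REV-ERB repressors of *Bmal1* itself. DBP, TEF, and HLF, the PAR bZIP factors, are also targets and pass the rhythm on by binding D-boxes. In skeletal muscle, this clock is known for setting the daily use of glucose and fat and for keeping muscle genes on.

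Promoters of *Per3* and *Nr1d2*, the clock genes with the largest and the most significant change below, are shown because letters searched for were present in both. The windows run from 250 bases before to 50 bases after the RefSeq start site (GRCm38.p6), 5′ to 3′ on the strand of the gene. Capitals mark the D-box letters TTATGTAA in *Per3* and the letters AGGTCA, which REV-ERB and ROR receptors can bind, in *Nr1d2*.
Per3, chr4:151044616-151044915, minus strand: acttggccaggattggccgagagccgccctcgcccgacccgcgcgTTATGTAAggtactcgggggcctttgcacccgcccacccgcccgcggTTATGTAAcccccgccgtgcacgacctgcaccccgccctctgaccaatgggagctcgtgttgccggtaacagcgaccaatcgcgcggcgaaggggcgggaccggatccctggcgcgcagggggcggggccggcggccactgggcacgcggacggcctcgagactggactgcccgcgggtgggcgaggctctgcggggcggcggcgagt
Nr1d2, chr14:18239057-18239356, minus strand: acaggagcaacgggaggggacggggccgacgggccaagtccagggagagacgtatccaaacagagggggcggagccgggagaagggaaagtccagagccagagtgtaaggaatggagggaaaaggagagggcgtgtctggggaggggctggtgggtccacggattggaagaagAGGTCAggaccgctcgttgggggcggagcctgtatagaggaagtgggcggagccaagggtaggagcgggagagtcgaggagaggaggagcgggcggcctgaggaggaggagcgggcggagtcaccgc
The 2 D-box matches of *Per3* began 205 and 158 bases before the start site, and the AGGTCA match of *Nr1d2* began 77 bases before it. Over 32851 promoters of the same length, counted on both strands, 0.938% held the D-box letters, 16.3% AGGTCA, 7.15% the E-box letters CACGTG, and 4.68% the related letters CACGTT. Neither E-box form was present in the windows of *Per3*, *Nr1d2*, *Hlf*, or *Dbp*. Of the genes that rose in KO+AAV muscle, 16 had a promoter entry, and 2 of these, *Per3* and *Coq10b*, held the D-box letters. AGGTCA was in 3 of the 16, CACGTG in 1, and CACGTT in 0. Among all genes tested that had an entry, 0.683% held the D-box letters, 15.3% AGGTCA, 11.4% CACGTG, and 6.28% CACGTT. A match describes letters in a short window only.

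Reads counted on genes ranged from 32563431 to 41733282 in the ICBR libraries (3 KO, 4 KO+AAV) and from 10076827 to 11811506 in the Novogene libraries (3 of each), ICBR and Novogene being the sequencing sites in the labels. The Novogene libraries thus had the larger counting error for low genes. Myofiber markers such as *Acta1*, *Ckm*, and *Myh4* were high in every library, with summed counts of 2397420 to 3020560 in KO and 2064860 to 3487800 in KO+AAV muscle. KO+AAV replicate 4 (ICBR) stood apart, with 245783 summed normalized counts of collagen and matrix genes against 62397 in the next KO+AAV library. KO+AAV replicate 5 (Novogene) stood apart in macrophage markers, with 9531 against 2675 in the next. Values without these 2 libraries are given for the calls and gene lists that they change.

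*Arntl*, the gene for BMAL1 (chromosome 7 from 113207465 to 113314126 of GRCm38), did not differ between the groups. Normalized counts were 196, 236, and 296 (lowest, median, highest) in KO, 169, 222, and 281 in KO+AAV, and 402, 527, and 634 in WT muscle. KO and KO+AAV overlapped over most of their range. The difference in mean log2(count + 1) was -0.0407 over the 13 libraries (*P* = 0.77, exact permutation test, two-sided, labels exchanged within sites, 700 arrangements), 0.13 at ICBR (exact *P* = 0.429, smallest possible 0.0286), and -0.267 at Novogene (exact *P* = 0.4, smallest possible 0.1). These counts therefore do not check the vector label, and KO+AAV and KO are used here as the names the labels give.

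Normalized counts were compared as log2(count + 1) with limma, with site as a covariate, in 16199 genes with a mean normalized count above 5. Of these, 426 genes (2.63%) had *P* under 0.01, the study's rule for differentially expressed genes (DEGs), 247 higher (1.52%) and 179 lower (1.11%) in KO+AAV muscle. With edgeR on the recovered reads the split was 381 higher and 176 lower. After Benjamini-Hochberg adjustment over all genes tested, 33 (0.204%) were below 0.05, 22 higher (0.136%) and 11 lower (0.0679%). These 33 are said here to have risen or fallen. In 26 of the 33 the KO+AAV and KO libraries did not overlap, against 93 of all genes tested (0.574%), but the same values had made the calls. Without KO+AAV replicates 4 and 5, 269 genes were DEGs and 22 passed the adjusted threshold, 19 of them among the 33. Without KO replicate 1, 19 passed, all among the 33. The labels give the libraries as separate samples and do not say more, so *P* values measure the spread between these samples.

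Of 8 clock repressors, *Per2* and *Per3* rose, *Bhlhe40* and *Ciart* were DEGs that were higher, and *Per1*, *Cry1*, *Cry2*, and *Bhlhe41* did not pass either threshold. *Per3*, a period gene (chromosome 4, 151003652 to 151044665 of GRCm38), stood at 8.41, 28.0, and 40.8 normalized counts in KO (lowest, median, highest), 116, 202, and 270.1 in KO+AAV, and 147, 230.3, and 306 in WT muscle. Every KO+AAV library lay above every KO library and the KO+AAV and WT ranges overlapped. The log2 fold change of *Per3* in KO+AAV over KO was 2.99 (SE 0.31, adjusted *P* = 6.02e-07), the largest among the 33 genes, and that of WT over KO+AAV was 0.19 (adjusted *P* = 0.819).

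*Per2*, a period gene whose protein blocks CLOCK and BMAL1, had 56.5, 72.8, and 92.4 normalized counts in KO, 130.2, 191, and 232 in KO+AAV, and 68.4, 94.8, and 132 in WT muscle. The KO+AAV libraries lay above the KO libraries and, except for the lowest of them, above the WT libraries as well. The rise over KO was 1.30 in log2 (SE 0.19, adjusted *P* = 0.000191), and WT minus KO+AAV was -0.94 (adjusted *P* = 0.00151). *Bhlhe40*, a repressor that binds E-boxes, had 436, 498, and 633 normalized counts in KO and 557, 785, and 1168 in KO+AAV muscle, with a log2 difference of 0.67 (SE 0.17, adjusted *P* = 0.119), and its groups overlapped. *Ciart*, a repressor of the same complex, had 1.13 to 26.9 normalized counts in KO and 8.85 to 30.8 in KO+AAV muscle, with overlap (1.26, SE 0.42, adjusted *P* = 0.313). *Cry2* differed by 0.35 on the log2 scale (SE 0.31, adjusted *P* = 0.794). *Per1* had a log2 difference of 0.47 (SE 0.55), which was -0.03 from the ICBR libraries and 1.04 from the Novogene libraries.

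In the REV-ERB and ROR loop, *Nr1d2* rose and *Nr1d1* did not pass. *Nr1d2*, which encodes REV-ERBβ (chromosome 14, 18204054 to 18239127 of GRCm38), stood at 199.96, 249, and 305 normalized counts in KO, 723, 960.5, and 1308 in KO+AAV, and 1421, 1773, and 1953 in WT muscle. The 3 groups did not overlap, and KO+AAV lay between KO and WT. Over KO the log2 difference was 1.96 (SE 0.16, adjusted *P* = 3.88e-09), the smallest *P* in the comparison. ICBR libraries alone gave 1.97 and Novogene libraries 1.96. *Nr1d1*, which encodes REV-ERBα, had 351, 566, and 949 normalized counts in KO and 319.8, 660.4, and 954 in KO+AAV muscle, ranges that overlapped almost fully, while WT had 1208, 2366, and 3591. Over KO the log2 difference was 0.15 (SE 0.15, adjusted *P* = 0.830), and that of WT over KO+AAV was 1.76 (adjusted *P* = 2.21e-09). *Nr1d1* shares 8.55% of its exon bases with *Thra* on the other strand.

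The 3 PAR bZIP factors were all higher, *Dbp* and *Hlf* past the adjusted threshold and *Tef* as a DEG. *Dbp*, a D-box activator (chromosome 7, 45705088 to 45710203 of GRCm38), stood at 103, 115, and 119 normalized counts in KO, 249, 432, and 536 in KO+AAV, and 193, 608, and 839 in WT muscle. The KO libraries lay in a narrow range, and the lowest KO+AAV library was above the highest of them. On the log2 scale the change was 1.75 (SE 0.27, adjusted *P* = 0.000534). *Dbp* shares 18.0% of its exon bases with *Sphk2* on the other strand, and whether the counting used the strand is not given in the sources used here.

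*Hlf*, of the same family, had 16.5, 38.3, and 48.6 normalized counts in KO, 73.3, 122, and 181 in KO+AAV, and 184, 243, and 309 in WT muscle, with no overlap between any pair of groups. Over KO the log2 difference was 1.87 (SE 0.24, adjusted *P* = 2.78e-05). *Tef* had a log2 difference of 0.42 (SE 0.11, adjusted *P* = 0.131), with KO+AAV at 2982 to 4616 and KO at 2421 to 3298 normalized counts.

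None of the 4 clock activators passed the adjusted threshold. *Clock*, the partner of BMAL1, was a DEG that was lower, with 1048, 1213, and 1648 normalized counts in KO, 745, 881, and 953 in KO+AAV, and 667, 767, and 858 in WT muscle. Its KO+AAV and KO ranges did not overlap, and the log2 difference was -0.50 (SE 0.12, adjusted *P* = 0.0527), which was below the threshold with edgeR (adjusted *P* = 0.0355), DESeq2 (0.00457), and library quality weights (0.00893) and ranged from 0.0498 to 0.152 when 1 library was left out. *Npas2*, which can take the place of CLOCK, had a log2 difference of -0.19 (SE 0.20, adjusted *P* = 0.845) and 83.6 to 227 normalized counts in KO+AAV muscle, against 30.3 to 64.3 in WT muscle. *Nfil3*, a repressor at D-boxes, had 579 to 792 normalized counts in KO+AAV and 812 to 1143 in KO muscle, with no overlap, and a log2 difference of -0.56 (SE 0.23, adjusted *P* = 0.463).

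**Figure D1:**
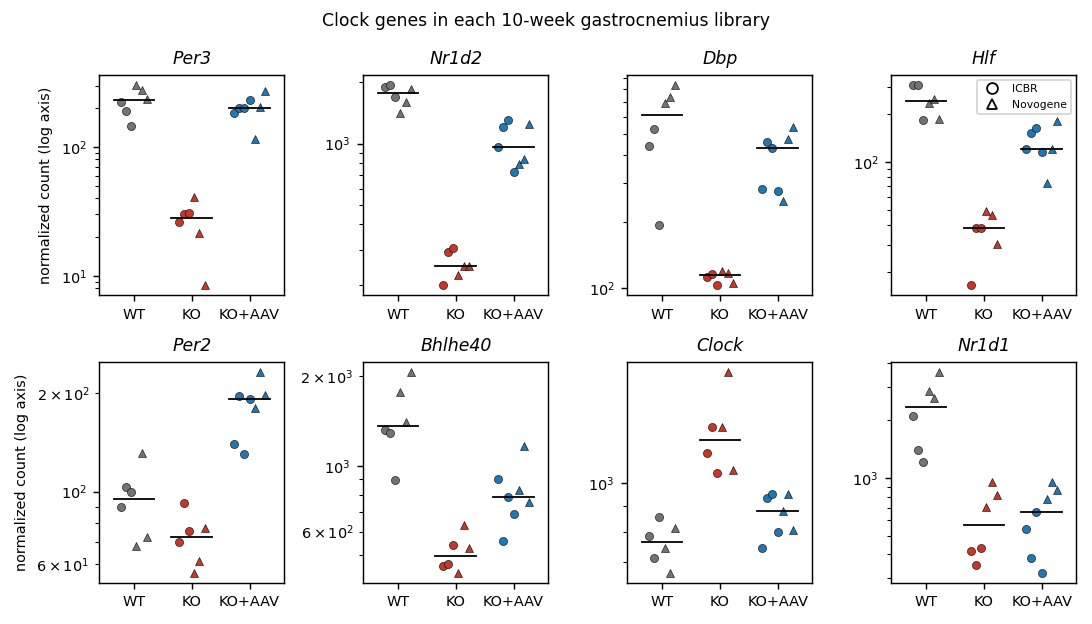
Normalized counts (log axis) of 8 clock genes in each 10-week library, circles for ICBR and triangles for Novogene, with the median of each group as a line. Every KO+AAV library lay above every KO library for *Per3*, *Nr1d2*, *Dbp*, *Hlf*, and *Per2* and below for *Clock*, while the groups overlapped for *Bhlhe40* and *Nr1d1*.

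Among 14 output genes of the muscle clock, *Mylk4*, *Tbc1d1*, and *Coq10b* rose, *Cacna2d4* was a DEG that was higher, and *Cacna1s* was a DEG that was lower, while the median log2 fold change of the 14 was -0.0164, against 0.00925 over all genes tested. *Mylk4*, a myosin light chain kinase gene of muscle (chromosome 13, 32700834 to 32783954 of GRCm38), stood at 982, 1924, and 2845 normalized counts in KO, 5021, 10129.9, and 16462 in KO+AAV, and 23639, 30787, and 39225 in WT muscle. The 3 groups did not overlap. The ICBR replicates 1 to 3 were the highest KO+AAV libraries and replicate 4, of the same site, the lowest. The log2 fold change of *Mylk4* was 2.41 (SE 0.38, adjusted *P* = 0.000654).

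*Tbc1d1*, a Rab GTPase-activating protein that holds back glucose transporter traffic until it is phosphorylated (chromosome 5, 64156305 to 64351486 of GRCm38), stood at 89.8, 126, and 353 normalized counts in KO and 264, 448, and 905 in KO+AAV muscle. KO replicate 3, at 353, was the KO library that reached into the KO+AAV range. The log2 difference was 1.62 (SE 0.25, adjusted *P* = 0.000654), and WT had 940.2 to 1515 normalized counts, above both groups. *Slc2a3*, the glucose transporter GLUT3, rose from a low level, from 6.28, 9.46, and 13.9 normalized counts in KO to 14.3, 30.3, and 51.4 in KO+AAV muscle. The lowest KO+AAV library was just above the highest KO library, and WT libraries held 155 to 421. KO+AAV minus KO came to 1.61 in log2 units (SE 0.34, adjusted *P* = 0.0251), while WT was above KO+AAV by a log2 of 3.07 (adjusted *P* = 3.62e-07). Without KO+AAV replicates 4 and 5 the call of *Slc2a3* was lost (1.55, adjusted *P* = 0.100), and it held in 6 of the 13 fits without 1 library. Of 16 genes of glucose uptake and phosphorylation, *Tbc1d1* and *Slc2a3* passed the adjusted threshold with all libraries, *Rab8a* was also a DEG (0.41, SE 0.13, adjusted *P* = 0.274), and the median was 0.0581.

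*Coq10b*, which encodes a coenzyme Q-binding protein of mitochondria, had 45.9, 62.8, and 75.7 normalized counts in KO and 88.7, 102, and 149 in KO+AAV muscle, with no overlap (log2 fold change 0.85, SE 0.19, adjusted *P* = 0.0387). *Cacna2d4*, an auxiliary subunit of calcium channels, reached 8.85 to 18.99 normalized counts in KO+AAV and 0 to 5.40 in KO muscle, with no overlap, but was far below the 203 to 450.5 of WT muscle. Over KO the log2 difference was 1.66 (SE 0.45, adjusted *P* = 0.155). *Car3*, the carbonic anhydrase of slow and oxidative muscle, rose from 2437, 4188, and 6376 normalized counts in KO to 14422, 15033, and 24691 in KO+AAV muscle, within the WT range of 14202 to 35000.2. Among 10 carbonic anhydrases tested it was the one called (log2 fold change 2.14, SE 0.29, adjusted *P* = 6.12e-05).

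*Cib2*, a calcium- and integrin-binding protein gene, had 434, 573, and 769.6 normalized counts in KO, 873, 1389.5, and 1772 in KO+AAV, and 1659.7 to 2742 in WT muscle, and it shares 15.8% of its exon bases with *Sh2d7* on the other strand. Its groups did not overlap between KO and KO+AAV (log2 difference 1.07, SE 0.19, adjusted *P* = 0.00273). *Atp8a1*, a flippase that moves phospholipids across membranes, had 240.1, 472, and 575 normalized counts in KO and 772, 1047, and 1621 in KO+AAV muscle (1.45, SE 0.25, adjusted *P* = 0.00246). *Snph*, which encodes syntaphilin, an anchor of mitochondria in axons, had 1.68, 4.49, and 10.1 normalized counts in KO, 16.8, 21.5, and 25.2 in KO+AAV, and 36.2 to 86.3 in WT muscle, with no overlap between any pair of groups. On the log2 scale the change was 2.0 (SE 0.44, adjusted *P* = 0.0426).

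*Macrod2*, *Rell1*, *Mllt3*, *Grk3*, and *Asl*, the urea cycle enzyme argininosuccinate lyase, rose by log2 fold changes between 0.57 for *Mllt3* and 0.95 for *Grk3*. *Rell1* reached 150.4 to 246 normalized counts in KO+AAV muscle, with 101 to 135 in KO and 178 to 206 in WT. *Asl* reached 62.7 to 96.0 in KO+AAV muscle, with 30.3 to 55.3 in KO and 65.5 to 107 in WT. *Gm20597*, a long noncoding RNA, had 0 to 4 reads in the KO libraries and 3 to 23 in the KO+AAV libraries, so it was called near the floor of 3 reads.

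Of the 11 genes that fell, *Slc15a5* and *Pla2g7* did so by more than 1 on the log2 scale. *Tead4*, a transcription factor of the Hippo pathway known in myoblast differentiation, had 525.6, 708, and 726 normalized counts in KO, 264, 315, and 473 in KO+AAV, and 199.7, 229, and 291 in WT muscle. KO+AAV and KO did not overlap, and KO+AAV reached into the upper WT range (log2 fold change -0.89, SE 0.13, adjusted *P* = 0.000459). It was the one call among 22 TEAD and Hippo genes, whose median was 0.0182. *Pla2g7*, a phospholipase that cleaves platelet-activating factor, had 2759, 2938, and 3564 normalized counts in KO, 611, 1327, and 1915 in KO+AAV, and 779 to 1172 in WT muscle, with replicate 4 the lowest KO+AAV library. The log2 difference was -1.25 (SE 0.24, adjusted *P* = 0.00895), and -1.02 without KO+AAV replicates 4 and 5 (adjusted *P* = 0.0827). It shares 11.0% of its exon bases with a gene on the other strand.

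*Mrln*, which encodes myoregulin, a small inhibitor of the SERCA calcium pump, had 934, 1566, and 1862 normalized counts in KO and 511, 792, and 1508 in KO+AAV muscle. In each group every ICBR library was above every Novogene library, and the groups overlapped across sites but not within either site (log2 difference -0.79, SE 0.16, adjusted *P* = 0.0247). *Agpat3*, an acyltransferase of phospholipid synthesis, had 3401 to 4109.8 normalized counts in KO and 2579 to 3341 in KO+AAV muscle, with no overlap (-0.44, SE 0.08, adjusted *P* = 0.00644). *Gnpat*, the first enzyme of plasmalogen synthesis, had overlapping groups and a log2 difference of -0.33 (SE 0.07, adjusted *P* = 0.0441). *Coro2b*, *Trappc10*, *Dcaf4*, *Rab11b*, and *Hip1r* fell by log2 fold changes between -0.31 and -0.89, without overlap for the first 4. *Hip1r* shares 12.5% of its exon bases with genes on the other strand.

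Of the 33 calls, 14 were lost without KO+AAV replicates 4 and 5, all with the same direction. These were *Slc2a3* (1.55, adjusted *P* = 0.100), *Coq10b* (0.92, 0.0676), *Snph* (2.06, 0.104), *Rell1* (0.52, 0.124), *Grk3* (0.93, 0.133), *Asl* (0.67, 0.181), and *C130080G10Rik* (2.19, 0.0969) among genes that were higher. Among genes that were lower, *Agpat3* (-0.41, adjusted *P* = 0.0521), *Pla2g7* (-1.02, 0.0827), *Trappc10* (-0.25, 0.0969), *Mrln* (-0.70, 0.126), *Slc15a5* (-1.70, 0.103), *Dcaf4* (-0.39, 0.181), and *Gnpat* (-0.24, 0.286) were lost. When 1 library at a time was left out, *Slc2a3* kept its call in 6 of 13 fits, *Coq10b* in 3, *Asl*, *Snph*, and *Hip1r* in 2, *Grk3* and *Gnpat* in 4, and *Mllt3* and *Dcaf4* in 5. *Mrln* kept it in 7, *Slc15a5* in 8, *C130080G10Rik* in 9, *Rell1* in 11, and *Trappc10* in 12. The clock genes that rose, *Mylk4*, *Tbc1d1*, *Car3*, *Aebp1*, and *Tead4* kept theirs in all 13 fits and without both libraries.

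In 3 genes KO+AAV muscle differed from KO and, on the side away from KO or past WT, also from WT at an adjusted *P* under 0.05. *Slc15a5*, a member of the proton-coupled peptide transporter family, had 111, 167, and 242 normalized counts in KO, 98.9, 139, and 382 in WT, and 5.36, 39.3, and 90.6 in KO+AAV muscle. Each KO+AAV library was below each KO and WT library, and replicate 4 was the lowest, at 5.36. The fall from KO was -2.18 in log2 (SE 0.46, adjusted *P* = 0.0280), -1.70 without KO+AAV replicates 4 and 5 (adjusted *P* = 0.103), and WT was above KO+AAV by 2.23 (adjusted *P* = 0.00217). *C130080G10Rik*, a noncoding RNA on chromosome 2 that shares 38.7% of its exon bases with *A530058N18Rik* on the same strand, had 6.15, 10.1, and 26.7 normalized counts in KO, 3.28, 12.6, and 37.8 in WT, and 29.0, 49.3, and 150.4 in KO+AAV muscle. The rise over KO was 2.22 in log2 (SE 0.45, adjusted *P* = 0.0208), and WT was below KO+AAV by -2.12 (adjusted *P* = 0.00321). The other gene was *Per2*, described above.

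All 32 of the 33 genes that passed the count filter at each site had the same direction at ICBR and at Novogene, against 59.1% of all 14295 genes tested at both, but both sites had entered the call. *P* was under 0.01 for 26 at ICBR (2.46% of all genes tested there), 25 at Novogene (1.02%), and 21 at both. At ICBR alone 2 genes passed an adjusted *P* of 0.05 (0.0135%), and at Novogene alone 7 (0.043%). Over all genes, the test of the difference between sites passed the adjusted threshold for 0 of 16055 genes with limma (639 at an unadjusted *P* under 0.05) and 0 with edgeR. An unadjusted *P* under 0.01 for that difference was held by 0 of the 33 (0.629% of all genes).

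**Figure D2:**
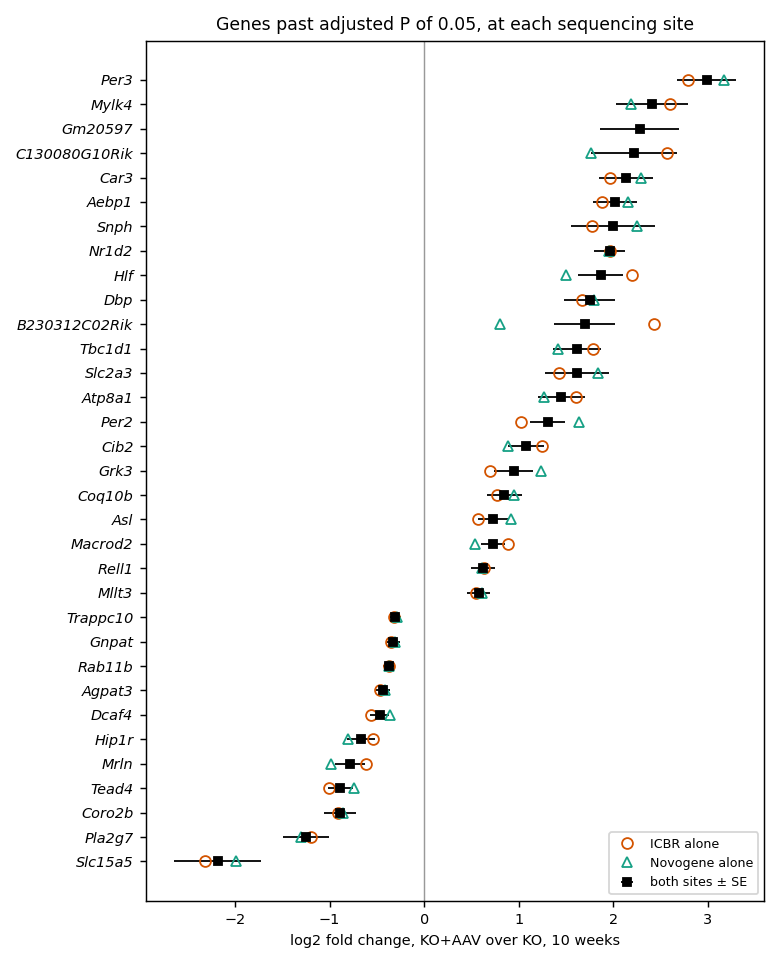
Log2 fold change of KO+AAV over KO at 10 weeks (x axis) for the 33 genes past the adjusted threshold, from both sites (squares, bars ± SE) and from each site alone (open symbols). The signs agreed at both sites for the 32 genes tested at each, and *Gm20597* has no site values.

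The 40-week libraries did not enter the 10-week fold changes. They did share the count filter and the estimate of the spread, so they had a part in the calls. In the 13 libraries alone 39 genes passed the adjusted threshold, 23 of them among the 33. In KO+AAV over KO at 40 weeks, 32 of the 33 had the direction seen at 10 weeks, 21 with *P* under 0.01, where 3.25% of all genes tested passed. The 10 that passed an adjusted *P* of 0.05 at 40 weeks (0.259% of all genes) were *Nr1d2*, *Per3*, *Aebp1*, *Hlf*, *Dbp*, *Mylk4*, *Tbc1d1*, *Atp8a1*, *Cib2*, and *Slc2a3*. *Rell1* had the opposite sign (-0.17, SE 0.14).

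The 40-week libraries were all from Novogene. *Per3* had 3.58 to 30.3 normalized counts in KO and 95.9 to 168 in KO+AAV muscle at 40 weeks, and *Slc2a3* had 3.07 to 14.3 and 25.5 to 97.7. Both groups stayed apart for each gene. *Mylk4* had 53.6, 143, and 639 normalized counts in KO and 5598, 8291, and 13675 in KO+AAV muscle at 40 weeks. The KO libraries at 40 weeks lay below those at 10 weeks, while the KO+AAV ranges of both ages overlapped. The log2 fold change of *Mylk4* was 5.74 at 40 weeks, a difference of 3.34 from 10 weeks (adjusted *P* = 0.0306), the one gene past the adjusted threshold for this difference with limma. edgeR gave 2.83 (adjusted *P* = 0.154), and the Novogene libraries alone gave 3.56 (adjusted *P* = 0.849). *Rell1*, *B230312C02Rik*, and *C130080G10Rik* also had an unadjusted *P* under 0.01 for the difference (1.08% of all genes, and 0.00617% past the adjusted threshold), and *C130080G10Rik* was at 0 to 2.22 normalized counts in KO+AAV and 0 to 1.78 in KO muscle at 40 weeks.

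With a GFP vector in KO muscle, in a table normalized on its own, 30 of the 33 genes were tested. The direction seen with *Bmal1* was held by 22 of the 30. *P* was under 0.01 for 5 of the 30 (8.24% of all genes tested), 4 of them in the direction seen with *Bmal1*. Of these, *Per2* rose with GFP by a log2 of 0.96 (SE 0.21, adjusted *P* = 0.0324) and *Tbc1d1* by 1.27 (SE 0.31, adjusted *P* = 0.0495), while *Car3* was a DEG at 0.94 (SE 0.27, adjusted *P* = 0.0802). *Hip1r* fell with GFP (-0.73, SE 0.13, adjusted *P* = 0.0102), and *Cib2* was a DEG at -0.36 (SE 0.10, adjusted *P* = 0.0844), opposite to its change with *Bmal1*. The values of *Per2* were 51.8 to 79.3 normalized counts with GFP and 29.8 to 35.2 in the controls, without overlap. *Per3*, *Nr1d2*, *Dbp*, *Aebp1*, and *Slc2a3* had log2 fold changes from 0.00 to 0.22 with GFP, *Mylk4* -0.44 (SE 0.27), and *Hlf* 0.44 (SE 0.30). The difference between the vectors was not tested, since the tables were normalized separately.

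**Figure D3:**
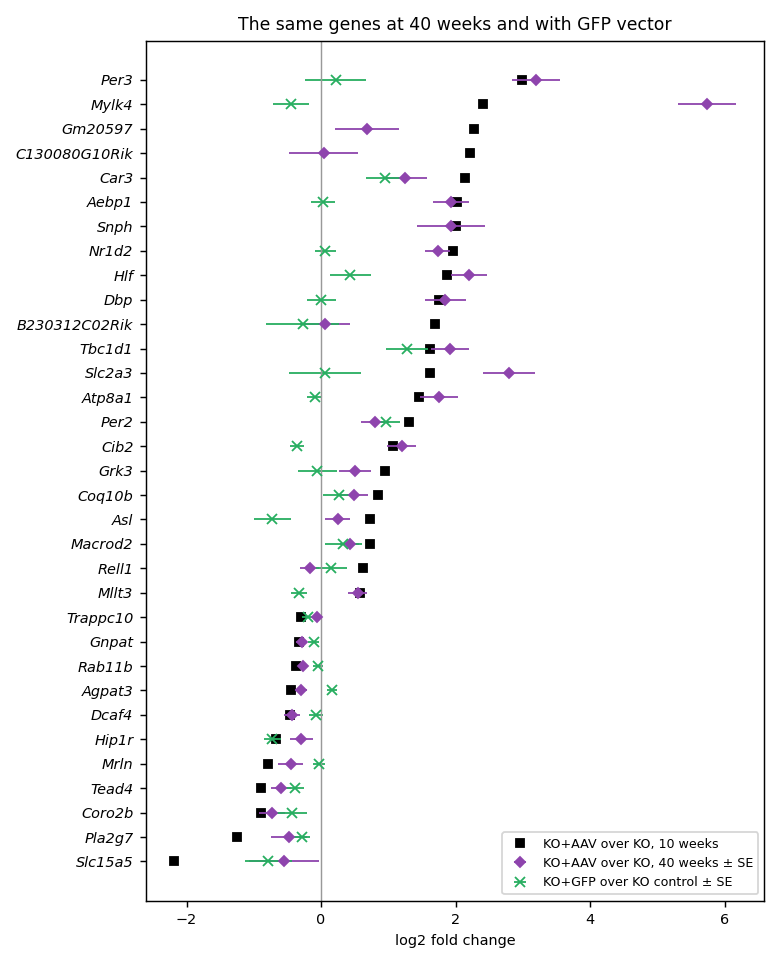
Log2 fold changes (x axis) of the same 33 genes in KO+AAV over KO at 10 weeks (squares), at 40 weeks (diamonds, ± SE), and in KO+GFP over KO control (crosses, ± SE). *Mylk4* was farther from 0 at 40 weeks (5.74) than at 10 weeks (2.41), and *Per2*, *Tbc1d1*, and *Car3* lay above 0.9 in the GFP experiment.

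Genes of collagens and matrix were higher in KO+AAV muscle for 32 of 32 members (51.9% of all genes tested were higher), with a median log2 fold change of 0.699. Of these, 1 gene rose, *Aebp1*, and 2 more were DEGs, where 2.63% of all genes tested were DEGs. *Aebp1*, which encodes a secreted collagen-binding protein and a nuclear repressor (chromosome 11, 5861947 to 5872088 of GRCm38), stood at 188, 277, and 294 normalized counts in KO, 805, 940.4, and 1606 in KO+AAV, and 818 to 1999 in WT muscle. KO+AAV replicate 4, the highest library for the summed list, was below the KO+AAV median for *Aebp1*, at 914. KO+AAV minus KO came to 2.02 in log2 units (SE 0.23, adjusted *P* = 4.51e-06) and 2.14 without KO+AAV replicates 4 and 5. *Col6a6*, a collagen chain, had 1.01 (SE 0.36, adjusted *P* = 0.358), and *Timp2*, an inhibitor of matrix metalloproteases, 0.70 (SE 0.20, adjusted *P* = 0.178). The median of the list was 0.889 at ICBR and 0.437 at Novogene, and 0.508 without KO+AAV replicates 4 and 5, when 29 of 32 members were higher. In the GFP experiment all 32 were higher as well, with a median of 0.564, where 50.6% of all genes were higher.

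Markers of tendon, fibroblasts, and adipocytes were higher as well. Endothelial markers (median -0.066, 6 of 8 lower) and Schwann cell markers (-0.184, 7 of 8 lower) were not. Pericyte and smooth muscle markers (0.0201, 4 of 8 higher) and satellite cell markers (0.0414, 5 of 8 higher) had medians near 0. The 8 tendon markers tested were all higher (median 0.754, and 0.384 without KO+AAV replicates 4 and 5) and the 8 fibroblast markers 7 of 8 (median 0.573, and 0.649), with summed counts of 6943.6 to 20059 in KO and 12296 to 69819 in KO+AAV muscle, where replicate 4 was the highest. The 8 adipocyte markers were all higher over both sites (median 0.783, and 0.686 without KO+AAV replicates 4 and 5), while the ICBR libraries gave 1.52 and the Novogene libraries -0.0697. No marker of these 3 lists was a DEG. In the GFP experiment, 8 of 8 tendon (median 0.58), 8 of 8 fibroblast (0.746), and 7 of 8 adipocyte markers (0.347) were higher. The fibroblast list held 5 DEGs there (8.24% of all genes tested there were DEGs) and the tendon and adipocyte lists 0. In a bulk sample, more cells of a type and more RNA per cell cannot be told apart, and the part of these markers in the matrix result was not tested.

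Macrophage markers were higher for 10 of 10 members (51.9% of all genes tested were higher), with a median of 1.23 and no DEG. Their summed counts were 434 to 1334 in KO and 907 to 9531 in KO+AAV muscle, where replicate 5 was the highest. The median was 0.566 at ICBR and 1.85 at Novogene, and 0.628 without KO+AAV replicates 4 and 5, when 10 of 10 members were still higher. The GFP experiment had a median of 1.33 for this list, with 8 DEGs among its members (8.24% of all genes tested there were DEGs).

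MHC class II genes, which present antigen, were higher for 7 of 7 members (51.9% of all genes tested were higher), with a median of 1.15. They held 1 DEG, *H2-Aa* (1.31, SE 0.48, adjusted *P* = 0.378). *H2-Aa* had 43.7, 150.0, and 264 normalized counts in KO and 203, 320.5, and 598 in KO+AAV muscle, with overlap. Complement genes were higher for 14 of 14, with a median of 0.686 and 2 DEGs, *C1qc* (1.63, SE 0.49, adjusted *P* = 0.232) and *C5ar1* (1.75, SE 0.63, adjusted *P* = 0.372). By site, 13 of 14 were higher at ICBR and 9 of 14 at Novogene. Chemokines and their receptors were higher for 16 of 17, with a median of 0.715 and 3 DEGs, *Ccl6*, *Ccl7*, and *Ccl9*. Over all genes tested, 2.63% were DEGs. Medians of MHC class II, complement, and chemokines were 0.582, 0.751, and 0.246 at ICBR and 1.67, 0.597, and 1.03 at Novogene. Without KO+AAV replicates 4 and 5 these lists held 0 DEGs, and the medians were 0.845, 0.642, and 0.268. The chemokine list then had 13 genes that passed the filter, 9 higher and 4 lower, so 4 of the 17 had passed it with those libraries. None passed the adjusted threshold in the full comparison. In the GFP experiment the medians of the 3 lists were 1.21, 0.839, and 0.255. Higher there were 6 of 7, 14 of 14, and 9 of 11 members, with 5, 6, and 2 DEGs (8.24% of all genes tested there were DEGs). Macrophage markers were higher as well. Sums of macrophage markers, MHC class II, and chemokines were highest in KO+AAV replicate 5 (9531, 2818, and 3497). The complement sum was highest in KO+AAV replicate 4 (7580), with 3182 in replicate 5. Macrophage markers include *C1qb*, itself a complement gene, so the lists are not fully separate. The part of macrophage markers in these values was not tested.

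**Figure D4:**
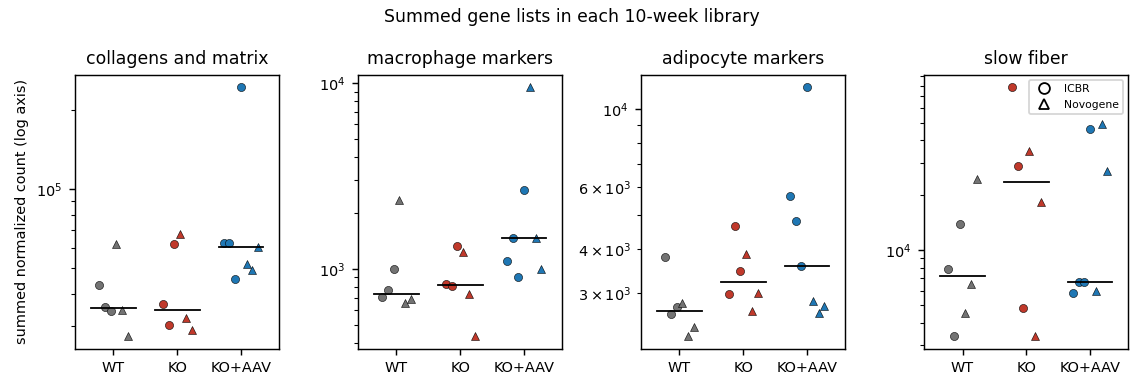
Summed normalized counts (log axis) of 4 gene lists in each 10-week library, circles for ICBR and triangles for Novogene, with group medians as lines. KO+AAV replicate 4 was the highest library for collagens and matrix (245783) and adipocyte markers (11574), replicate 5 for macrophage markers (9531), and slow fiber genes ranged from 3390 to 78651 within KO muscle.

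*Ighm*, the constant region of immunoglobulin M, was a DEG that went the other way. It had 1368, 2221, and 2463 normalized counts in KO, 432, 856, and 1294 in KO+AAV, and 835 to 2049 in WT muscle. The KO+AAV and KO libraries did not overlap. In log2 the change was -1.32 (SE 0.42, adjusted *P* = 0.276), and -1.28 without KO+AAV replicates 4 and 5. With GFP, *Ighm* was 331 to 521 normalized counts against 1217 to 1482 in the KO controls (log2 fold change -1.63, adjusted *P* = 0.000252). Among B and plasma cell markers 2 more passed the filter, and neither was lower. *Mzb1* differed by 0.05 (SE 0.34, adjusted *P* = 0.987), and *Ighg2c* was at 0 in the KO libraries and at 0 to 2.80 normalized counts in the KO+AAV libraries. *Cd79a* and *Ms4a1* did not pass.

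Genes of fatty acid uptake and oxidation were lower for 27 of 28 members (48.1% of all genes tested were lower), with a median log2 fold change of -0.300. The list held 3 DEGs (2.63% of all genes tested were DEGs) and none past the adjusted threshold. The DEGs were *Fabp3*, a fatty acid carrier (-0.83, SE 0.30, adjusted *P* = 0.378), *Acsl1*, which activates long-chain fatty acids (-0.40, SE 0.13, adjusted *P* = 0.286), and *Cpt2*, of the carnitine shuttle (-0.36, SE 0.13, adjusted *P* = 0.350). Without KO+AAV replicate 5 the list held 0 DEGs (median -0.227, 26 of 28 lower), and without replicates 4 and 5 also 0 (median -0.202, 23 of 28 lower). The ICBR libraries gave a median of -0.504 and the Novogene libraries -0.0656. The GFP experiment had a median of 0.483 for this list, in the other direction, with 23 DEGs (8.24% of all genes tested there were DEGs). At 40 weeks the median was -0.276, with 25 of 28 lower.

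Slow fiber genes were lower for 11 of 11 members over both sites (median -0.279), with no DEG, while the ICBR libraries gave -1.07 and the Novogene libraries 0.564. Without KO+AAV replicate 5 the members were split, 6 higher and 5 lower (median 0.0107), and without replicates 4 and 5 there were 3 higher and 8 lower (median -0.265). Their summed counts spanned 3390 to 78651 in KO and 5829.6 to 49501 in KO+AAV muscle. The groups overlapped over most of this span. The part of slow fiber content in the fatty acid values was not tested. In the GFP experiment, slow fiber genes had a median of 1.99, with 11 DEGs among its 11 members (8.24% of all genes tested there were DEGs). At 40 weeks the median was -1.43, with 11 of 11 lower and no DEG.

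The mitochondrial lists had medians slightly below 0, and no test of these medians was made. The SD of the list between single libraries was 0.168 to 0.21, which is not the error of a difference between group means. TCA cycle genes were lower for 19 of 19 (median -0.188), complex I genes for 36 of 37 (-0.162), genes of complexes III, IV, and ATP synthase for 33 of 34 (-0.156), and mitochondrially encoded genes for 12 of 12 (-0.187). These lists held 1 DEG among 102 genes (0.98%, against 2.63% of all genes tested), *Sucla2*, a subunit of succinyl-CoA synthetase (-0.37, SE 0.09, adjusted *P* = 0.0643), with 13084 to 14733 normalized counts in KO and 8452 to 12678 in KO+AAV muscle, without overlap. Without KO+AAV replicates 4 and 5 the 4 medians were -0.0809, -0.0594, -0.0511, and -0.0663. In the GFP experiment they lay on the other side of 0, at 0.166, 0.155, 0.228, and 0.252. At 40 weeks they were -0.28, -0.259, -0.31, and -0.217. Those of WT minus KO at 10 weeks were -0.278, -0.241, -0.317, and 0.22. Glycolysis and glycogen genes were higher for 23 of 32 members, with a median of 0.0561, 0.219 at ICBR and -0.0419 at Novogene.

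**Figure D5:**
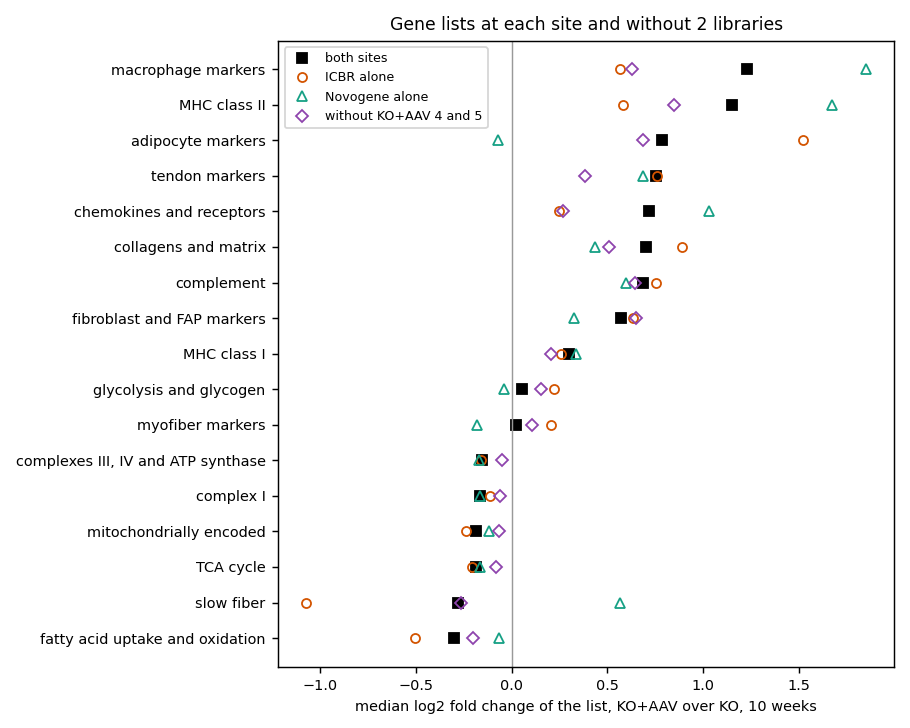
Median log2 fold change of KO+AAV over KO at 10 weeks (x axis) for 17 gene lists, from both sites (filled squares), each site alone, and without KO+AAV replicates 4 and 5 (diamonds). Immune and matrix lists lay above 0 at both sites, adipocyte markers and slow fiber genes changed sign between sites (1.52 and -0.0697, -1.07 and 0.564), and the mitochondrial lists lay near -0.2 to 0.

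DEGs of other lists lay in both directions, and those named next did not pass the adjusted threshold. Higher in KO+AAV muscle were *Itga4*, an integrin subunit (0.99, SE 0.26, adjusted *P* = 0.119), and *Cdh4*, a cadherin (1.54, SE 0.47, adjusted *P* = 0.230), both without overlap between KO and KO+AAV. Also higher, with overlap, were *Fbp2*, the muscle fructose bisphosphatase (1.04, SE 0.37, adjusted *P* = 0.357), *Stbd1*, a glycogen-binding protein gene (0.72), *G6pdx*, of the pentose phosphate pathway (0.70), *Slc6a9*, a glycine transporter (0.68), *Mlf1* (0.49), *Cask* (0.44), *H2-D1*, of MHC class I (0.36), and *Usp2*, a deubiquitinase (0.29). Adjusted *P* for the last 7 ranged from 0.184 to 0.348. *Cask* and *Mlf1* were named by the study from these samples, as were *Itga4*, *Cdh4*, *Fbp2*, *Stbd1*, and *Slc6a9*, so their direction is not independent evidence. Without KO+AAV replicates 4 and 5, *Stbd1*, *Slc6a9*, *G6pdx*, *H2-D1*, *Cask*, and the lower *Stim1* were no longer DEGs. Among lower DEGs, *Pdpr*, a regulator of the phosphatase that activates pyruvate dehydrogenase, had 2736 to 3312 normalized counts in KO and 1384 to 2875 in KO+AAV muscle (log2 fold change -0.52, SE 0.12, adjusted *P* = 0.0601). *Gpt*, alanine aminotransferase, had 777 to 1436 in KO, 501 to 913 in KO+AAV, and 304 to 487 in WT muscle (-0.65, SE 0.15, adjusted *P* = 0.0601), and it fell at 40 weeks (-0.82, adjusted *P* = 0.0235). KO+AAV and KO overlapped for *Pdpr* and *Gpt*. *Musk*, the receptor kinase that builds the neuromuscular junction, had 281 to 409.8 in KO and 130.1 to 337 in KO+AAV muscle (-0.90, SE 0.31, adjusted *P* = 0.342), and *Stim1*, the calcium sensor of the sarcoplasmic reticulum, 5247 to 6666 and 3949 to 5882 (-0.33, SE 0.09, adjusted *P* = 0.159).

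The lists of the proteasome (31 genes), p53 and senescence (14), fast fiber genes (13), atrophy and autophagy (18), glucocorticoid-responsive genes (14), interferon response (22), and myogenic regulators (11) held no DEG, with medians from -0.0747 to 0.229. Over all genes tested, 2.63% were DEGs and 0.204% passed the adjusted threshold. Of the 57 gene lists examined, 42 held no gene past the adjusted threshold.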

How the data were processed

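Poly(A) RNA of mouse gastrocnemius was sequenced at 2 sites. Reads had been aligned by the authors with HISAT2 (GRCm38) and counted with HTSeq. The deposited signal values are these counts after division by a size factor from DESeq2 (normalized counts). The annotation release and the use of strand in counting are not given in the sources used here. Whole reads were recovered for the 34 gastrocnemius libraries of the main experiment from the step between low values (every value lay within 0.00318 of a whole read), and the sums give the depths in the text, which bound counting error only.

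log2(normalized count + 1) was fitted in limma (3.58.1, trend, R 4.3.3) over genes with a mean above 5, in 1 model of 34 libraries in 6 groups with site as a covariate. Each site alone, the interaction with site, 40 weeks, and the GFP experiment were fitted likewise. Adjusted *P* is Benjamini-Hochberg over all genes tested. Alternatives were edgeR 4.0.16 and DESeq2 1.42.0 on the recovered reads, and other filters, scalings, models, and left-out libraries. Code was tested on simulated data.

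Coordinates and exon overlaps are from GENCODE vM21 (GRCm38) and promoters from RefSeq. Gene lists and the rule for named genes (all clock genes of 4 lists, all genes past the adjusted threshold, up to 4 members of smallest *P* in each other list, and genes past the threshold for a site or age difference) were chosen with earlier results of these data known. The libraries of other tissues were not used, and some members of these lists are not reported here. Equal replicate numbers did not pair the libraries.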

Additional observations from a re-analysis of the deposited data

Results flagged for a closer look

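Samples far from the others of their group were sought with Dixon's gap test in 132 groups of values. It flagged 17, each the highest of its group, 7 in KO+AAV replicate 4 and 3 in KO+AAV replicate 5. The test flags about 1 in 20 groups when values are normally distributed. These were counts and sums without a log scale, and some sums came from the same cell content, so the 17 were not held against that rate. KO+AAV replicate 4 was the highest of 7 for the summed counts of collagens and matrix (245783), complement (7580.3), adipocyte (11574), fibroblast (69819), pericyte and smooth muscle (17192), and tendon genes (18356), and for *B230312C02Rik* (348 normalized counts, the next library having 92.8). KO+AAV replicate 5 was the highest for summed macrophage (9531) and neutrophil markers (114) and for *Hip1r* (444). KO+AAV replicate 6 was the highest for *Agpat3* (3341) and for the sum of fatty acid uptake and oxidation genes (118986). *C130080G10Rik* was far from the rest in KO+AAV replicate 2 (150.4) and in KO replicate 5 (26.7). *Bhlhe41* was highest in KO+AAV replicate 3 (1485), *Tbc1d1* in KO replicate 3 (353), and the sum of Schwann cell markers in KO replicate 5 (7411).

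*Mylk4* differed between ages: the log2 fold change of KO+AAV over KO was larger by 3.34 at 40 weeks than at 10 weeks (adjusted *P* = 0.0306 with limma, higher in 5 of 5 KO+AAV libraries at 40 weeks and 7 of 7 at 10 weeks). The adjusted *P* of this difference was 0.154 with edgeR (2.83) and 0.849 in the Novogene libraries alone (3.56), past the threshold in neither.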

How the results depend on the processing

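The 33 genes kept their direction in each of 27 alternatives that gave a value. All 33 passed the adjusted threshold with edgeR and with DESeq2, and 19 did in each of the 13 fits without 1 library. The number of genes past the adjusted threshold, 33 as reported, was 50 with edgeR, 147 with DESeq2, and 180 with library quality weights. It was 39 in the 13 libraries alone, 23 of them among the 33, and 70 in the 19 ten-week libraries alone. It was 2 at ICBR alone and 7 at Novogene alone, and it ranged from 19 to 39 without 1 library. DEGs numbered 708 with DESeq2, 795 with quality weights, 166 at Novogene alone, 269 without KO+AAV replicates 4 and 5 (chosen after seeing the data), and 295 to 546 without 1 library. The DEGs split into 381 higher and 176 lower with edgeR. DEGs for the difference between ages numbered 175 with limma and 89 at Novogene alone, which has fewer samples. Replicate numbers did not pair the libraries: same-numbered KO+AAV and KO libraries had correlations of their deviations of -0.126 to 0.0289, and a replicate block gave 70 genes past the adjusted threshold. Size factors computed again with TMM moved the median over all genes by -0.00253.

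Some clock genes without a call turned in sign. *Arntl* was 0.13 at ICBR and ranged from -0.138 to 0.0336 without 1 library. *Arntl2* was -0.115 at Novogene, -0.041 with quality weights, -0.0726 without KO+AAV replicates 4 and 5, and -0.0845 to 0.129 without 1 library. *Per1* was -0.0302 at ICBR, and *Bhlhe41* was -0.0511 and *Rora* -0.0543 at Novogene. The cause was not tested in any of these. The 3 Novogene KO libraries held 0 reads of *Gm20597*, 1 to 6 of *Snph*, and 4 to 8 of *Slc2a3*, so changes of such genes rest on few reads there.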
